A study of Mus musculus with 6 samples.

Results

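Ribosome biogenesis and Myc are described here through 35 genes: Myc and 34 genes of the nucleolar machinery that transcribes and processes ribosomal RNA and assembles both ribosomal subunits. The members were listed by what their products do, with earlier results of these data known, and all 35 were found among the 17831 genes of the deposited table and among the 13623 genes tested. Lung group 2 innate lymphoid cells (ILC2s), tissue-resident lymphocytes that make type 2 cytokines, were profiled by bulk RNA sequencing. The labels give the genotype of the 3 WT libraries as CB57BL/6 and that of the 3 SIRPα KO libraries as SIRPalphatm1Ynliu/J. SIRPα is an inhibitory surface receptor for CD47, and the comparison addresses how its loss changes the transcriptome of activated ILC2s. All mice, 6 to 8 weeks old, were challenged through the nose with 0.5 µg rmIL-33 for 3 days, and the cells were sorted on day 4 by the markers CD45+ Lineage- CD127+ ST2+. Cells of both groups were then cultured with rmIL-2 and rmIL-7 at 10 ng/mL each, for 18 h or 24 h, on which the sources differ, and 10 pg of RNA per library was amplified. No Cre or cell type that would limit the loss of SIRPα to ILC2s is named in the sources used here.

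Ribosomes are built in the nucleolus, where RNA polymerase I transcribes a long precursor RNA that is cut, chemically modified by small nucleolar RNPs (snoRNPs) and folded around ribosomal proteins. Myc is a transcription factor that drives growth in activated lymphocytes, and genes of ribosome production and nucleotide synthesis are among its best known targets. Expression is given as CPM, the read count of a gene relative to the library's TMM-scaled total, and a log2 fold change is SIRPα KO over WT.

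Between 13980491 and 19051504 reads were counted per library, and the lowest value of any member in any library was 525 reads. Sirpa, the targeted gene, had 8.57, 6.83 and 4.83 CPM in WT 1, 2 and 3 and 3.07, 4.46 and 1.74 CPM in SIRPα KO 1, 2 and 3. It was lower in every SIRPα KO library but did not pass the test (log2 fold change -1.12, SE 0.42, adjusted p = 0.12, edgeR quasi-likelihood test with Benjamini-Hochberg adjustment), and the part of the gene that the allele removes was not compared with the reads. Libraries varied more in WT, where edgeR gave a biological coefficient of variation of 38.0% (27.9% without WT 3), than in SIRPα KO, where it gave 15.2%. In the labels WT 1 and 2 carry the related codes 37 and 37V1, and so do SIRPα KO 2 and 3 with 44 and 44V1. Nothing states whether libraries of one code come from separate mice, so p values measure the spread between these libraries and are too small if libraries of one code are one sample. All 12 ILC2 markers listed were measured, of which 3 rose and Thy1 fell, with a summed level of 13700 to 15136 CPM in WT, and of 20134 to 20733 CPM in SIRPα KO. Most of this sum was Il5 (mean 9192 CPM in WT and 12951 in SIRPα KO), with Il2ra next (1841 and 3451 CPM). The 3 that rose were Il2ra, Il5 and Ptprc, while Gata3, Rora, Klrg1, Icos, Il13, Areg, Il1rl1 and Il7r did not pass. The summed level of 6 of 7 B cell markers, of which 5 fell, was 216 to 479 CPM in WT and 23.1 to 84.6 CPM in SIRPα KO. For 5 of 7 T cell markers, of which Cd3g fell and Cd4 had 0 reads in WT, it was 17.99 to 23.5 and 4.77 to 5.56 CPM. For 5 NK cell markers, of which 3 fell, it was 13.9 to 25.3 and 1.73 to 3.73 CPM. The macrophage and dendritic cell, eosinophil, and basophil and mast cell lists had 0 called, with ranges that overlapped between genotypes, and of 4 of 7 epithelial, endothelial and fibroblast markers Pecam1 rose and Epcam fell. The part of these markers in the results was not tested. In bulk libraries, fewer cells of a type and less RNA per cell cannot be told apart.

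The members that passed the test were all higher in SIRPα KO ILC2s. Of the 35 members, 18 rose and 0 fell (edgeR, adjusted p under 0.05), where 5.94% of all genes tested rose and 5.81% fell. The folds of the 18 lay between 1.37 and 2.87. By sign alone, 32 members were higher and 3 lower, and at an unadjusted p under 0.05 there were 25 higher and 1 lower, where 2198 and 2157 of the 13623 genes were. DESeq2 called 24 members higher and 0 lower, where it called 13.6% of the 12293 genes with an adjusted p higher. All 3 SIRPα KO libraries exceeded all 3 WT libraries for 27 members, against 21.6% of all genes tested, and lay below them for 1 (Nhp2), against 21.2%, or 28 in either direction, against 42.8%. The median log2 fold change of the members was 0.50, beside -0.03 for all genes tested. The members' median position against their WT mean, on the log2 CPM scale, was -0.02, 0.02 and 0.04 in WT 1, 2 and 3 and 0.52, 0.46 and 0.48 in SIRPα KO 1, 2 and 3. WT members lay on both sides of their mean in each library, so that these medians do not show the spread of single members within WT.

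**Figure D1:**
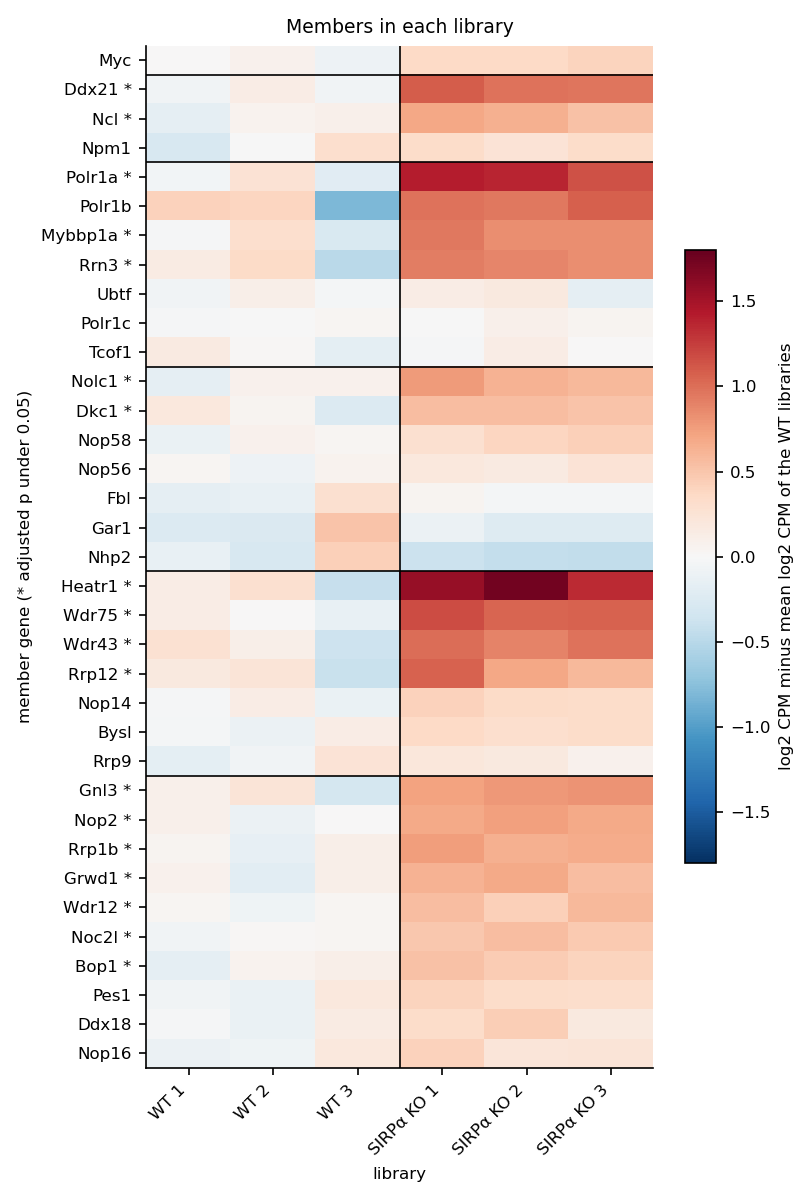
Heat map of the 35 members (vertical axis, grouped by role with lines between groups) in the 6 libraries (horizontal axis), coloured by log2 CPM minus the mean log2 CPM of the 3 WT libraries. Stars mark the 18 members with an adjusted p under 0.05, and for all 18 every SIRPα KO library has a higher value than any WT library.

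With the libraries of one code summed, which leaves 2 against 2, 0 members passed the adjusted threshold, 21 were higher at an unadjusted p under 0.05 (12.3% of all genes), and only 10 genes of the whole table were called. Leaving out any 1 SIRPα KO library also took the count to 0, where 16 or 17 genes of the whole table were called. In these fits 21, 21 and 24 members were higher at an unadjusted p under 0.05, beside 1590 of 14242, 1538 of 14146 and 1642 of 14141 genes. Leaving out WT 1, 2 or 3 gave 14, 18 and 27 members higher, beside 4.03%, 9.28% and 10.4% of all genes.

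Myc, the transcription factor, had 186, 196 and 173 CPM in WT 1, 2 and 3 and 237, 237 and 245 CPM in SIRPα KO 1, 2 and 3. All 3 SIRPα KO libraries were above all 3 WT libraries, and the SIRPα KO values lay close together. The 1.29-fold difference did not pass the adjusted threshold (log2 fold change 0.37, SE 0.10, adjusted p = 0.053). The adjusted p was 0.081, 0.047 and 0.019 without WT 1, 2 and 3, and 0.18 to 0.19 without any one SIRPα KO library. It was 0.0047 with DESeq2, 0.11 with upper quartile scaling or a replicate block and 0.20 with codes summed. Each library was also corrected for a trend in transcript length and GC content (an offset fitted to each library). The log2 fold change was then 0.52 (adjusted p = 0.021) with the longest transcript. It was 0.45 (adjusted p = 0.024) with the longest coding transcript and 0.84 (adjusted p = 0.017) with the principal transcript. The estimate thus depended on the transcript chosen, and the coding transcripts of Myc run from 381 to 2338 bases. Per kb of its longest transcript, Myc stood at a level of 79.2 CPM in WT and 102 in SIRPα KO, within the range of the other members, which ran from 4.87 for Polr1a to 483 for Npm1 in WT.

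Of 13 genes tested whose products partner or oppose Myc, 1 rose and 3 fell, beside 5.94% and 5.81% of all genes, with a median log2 fold change of -0.01. The rise was not called without WT 1, without any one SIRPα KO library or with codes summed. The median was -0.23 without WT 3 and -0.34, -0.39 and -0.21 under the 3 versions of the length and GC correction, in which 0 rose. Mga, a factor that binds Max, rose from 28.1 ± 8.10 to 55.0 ± 4.73 CPM (mean ± SD, n = 3 libraries; log2 fold change 0.97, SE 0.23, adjusted p = 0.036). Max, the partner that Myc needs to bind DNA, fell from 70.3 ± 2.5 to 40.0 ± 9.73 CPM (log2 fold change -0.81, SE 0.19, adjusted p = 0.036). Mxd4 and Mxd3, which compete with Myc for Max, fell as well, with log2 fold changes of -0.63 (SE 0.15, adjusted p = 0.040) and -0.91 (SE 0.22, adjusted p = 0.040). Mycn, the paralog of Myc, had low levels, 1.75 ± 0.441 CPM in WT and 0.585 ± 0.314 in SIRPα KO (log2 fold change -1.57, adjusted p = 0.12). Mxd1 and Zbtb17 had log2 fold changes of 0.32 and 0.13 and did not pass (adjusted p = 0.31 and 0.70). The planned correction left 1 of the 13 lower, as did the replicate block and leaving out WT 1 or WT 2, and no filter, codes summed or leaving out any SIRPα KO library left 0. On principal transcripts 2 were lower, Max and Mxd4.

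The E-box CACGTG is the sequence that Myc and Max prefer, and it reads the same on both strands. RefSeq windows on GRCm38.p6, from 250 bases before to 50 bases after a gene's start, were given for 29 of the 35 members, and not for Rrp12, Npm1, Myc, Bop1, Tcof1 and Fbl. A gene was counted if any of its windows held CACGTG. That was so for 6 of the 29 members (20.7%), beside 12.1% of the 9501 tested genes with a window and 8.09% of all 27025 genes with one. CACGTG was found for 5 of the 16 members with a window that rose (31.2%) and for 1 of 13 of the others (7.69%). This difference rests on few genes and was not tested. By role, the E-box was found for 2 of 6 RNA polymerase I genes and 3 of 9 large subunit genes, and for 0 of 6 snoRNP genes. A match describes these letters and not a bound site. The windows that hold it are shown because they differ in where and how often the E-box occurs. Rrn3 alone had a pair of E-boxes, whose first bases lie at positions -215 and -48 from the start, and Nop2 had one at -60, and for these genes the 250 bases upstream are printed 5′ to 3′ with the E-boxes in capitals (chr16:13780449-13780698 for Rrn3 and chr6:125131633-125131882 for Nop2, both on the plus strand). The other 4 lie downstream of the start, at position 3 in Pes1 (chr11:3963965-3963994, plus strand), 18 in Wdr43 (chr17:71616220-71616249, plus strand), 35 in Grwd1 (chr7:45830740-45830767, minus strand) and 41 in Mybbp1a (chr11:72441355-72441376, plus strand), and are shown with up to 12 bases on either side.
Rrn3: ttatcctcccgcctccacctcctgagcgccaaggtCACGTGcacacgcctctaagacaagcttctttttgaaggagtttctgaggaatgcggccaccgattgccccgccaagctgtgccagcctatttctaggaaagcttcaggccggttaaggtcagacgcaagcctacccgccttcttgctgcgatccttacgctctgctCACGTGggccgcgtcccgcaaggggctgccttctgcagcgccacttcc
Nop2: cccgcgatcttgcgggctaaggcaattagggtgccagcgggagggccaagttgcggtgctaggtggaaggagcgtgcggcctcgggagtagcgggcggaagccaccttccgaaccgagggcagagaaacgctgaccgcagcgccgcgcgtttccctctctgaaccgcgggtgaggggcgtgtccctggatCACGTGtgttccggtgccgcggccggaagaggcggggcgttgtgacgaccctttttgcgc
Pes1: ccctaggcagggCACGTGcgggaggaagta
Wdr43: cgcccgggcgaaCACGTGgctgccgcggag
Grwd1: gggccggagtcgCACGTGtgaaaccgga
Mybbp1a: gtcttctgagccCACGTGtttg

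Among the other lists, the E-box was found for 20 of 88 further ribosome biogenesis genes with a window (22.7%) and 5 of 23 nucleotide synthesis genes (21.7%). It was found for 6 of 58 ribosomal protein genes (10.3%) and 4 of 13 genes of Myc partners and antagonists (30.8%). Of the 6 members with an E-box in the window, Rrn3, Nop2, Wdr43, Grwd1 and Mybbp1a rose, and Pes1 had a log2 fold change of 0.34 that did not pass (adjusted p = 0.093).

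Abundant nucleolar RNA-binding proteins were represented by 3 genes, of which 2 rose, with a median log2 fold change of 0.62. Ncl, nucleolin, which binds nascent ribosomal RNA, had 901, 1053 and 1071 CPM in WT 1, 2 and 3 and 1626, 1563 and 1452 CPM in SIRPα KO 1, 2 and 3. The genotypes did not overlap, and Ncl rose 1.53-fold (log2 fold change 0.62, SE 0.10, adjusted p = 0.016). With the length and GC correction the call was lost and the sign changed (log2 fold change -0.01, adjusted p = 0.97). Ddx21, an RNA helicase that couples RNA polymerase I transcription to processing, had 117, 134 and 118 CPM in the WT libraries and 261, 242 and 239 CPM in the SIRPα KO libraries. The lowest SIRPα KO library was far above the highest WT library, and Ddx21 rose 2.01-fold (log2 fold change 1.01, SE 0.11, adjusted p = 0.0072). Npm1, nucleophosmin, a chaperone that leaves the nucleolus with pre-ribosomes, had 635, 770.2 and 960.1 CPM in the WT libraries and 978, 919.6 and 974 CPM in SIRPα KO. WT 3 fell among the SIRPα KO values, and the 1.21-fold difference did not pass (log2 fold change 0.28, SE 0.15, adjusted p = 0.23). The log2 fold change was 0.45 without WT 3 (adjusted p = 0.017) and 0.15 without WT 1 (adjusted p = 0.41). Npm1 has 4 near-identical copies with counts of their own in the table, which sum to 3.04% of the count of Npm1.

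Of 7 genes of RNA polymerase I transcription, 3 rose, and the group's median log2 fold change was 0.84. Polr1a, the largest subunit of the enzyme, had 43.0, 53.1 and 38.6 CPM in WT 1, 2 and 3 and 119, 115 and 98.6 CPM in SIRPα KO 1, 2 and 3. The lowest SIRPα KO library was well above the highest WT library, and Polr1a rose 2.47-fold (log2 fold change 1.31, SE 0.16, adjusted p = 0.0092). Rrn3, the initiation factor that recruits the enzyme to the ribosomal DNA promoter, had 81.4, 93.4 and 52.4 CPM in the WT libraries and 139.8, 135 and 131 CPM in SIRPα KO. WT 3 was the lowest library, and Rrn3 rose 1.79-fold (log2 fold change 0.84, SE 0.21, adjusted p = 0.040). It passed without WT 2 or WT 3 (adjusted p = 0.024 and 0.0073) but not without WT 1 (0.066) or any one SIRPα KO library (0.13 to 0.16). Mybbp1a, a nucleolar protein that binds Myb and takes part in ribosomal RNA production, had 335, 417 and 280.1 CPM in the WT libraries and 653, 606 and 607 CPM in SIRPα KO. It rose 1.81-fold with no overlap (log2 fold change 0.85, SE 0.15, adjusted p = 0.018).

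The remaining RNA polymerase I genes did not pass. Polr1b, the other large catalytic subunit, had 80.6, 79.4 and 34.8 CPM in the WT libraries and 119, 117 and 127 CPM in SIRPα KO, with WT 3 far below the other libraries. Its log2 fold change was 0.90 (SE 0.29, adjusted p = 0.083), and without WT 3 the adjusted p was 0.0066. Tcof1, treacle, a nucleolar scaffold for ribosomal DNA transcription, had the lowest difference of the group as counted. Tcof1 had 158, 143 and 125 CPM in the WT libraries and 139, 155 and 142 CPM in SIRPα KO. The groups overlapped (log2 fold change 0.03, SE 0.12, adjusted p = 0.88), and those of Ubtf, which holds ribosomal DNA open (log2 fold change 0.06, adjusted p = 0.79), and of Polr1c, a subunit shared with RNA polymerase III (log2 fold change 0.05, adjusted p = 0.83), overlapped too. The difference of each of these 3 changed sign under at least 1 other setting, and that of Polr1c was 0.46 with the length and GC correction (adjusted p = 0.083).

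**Figure D2:**
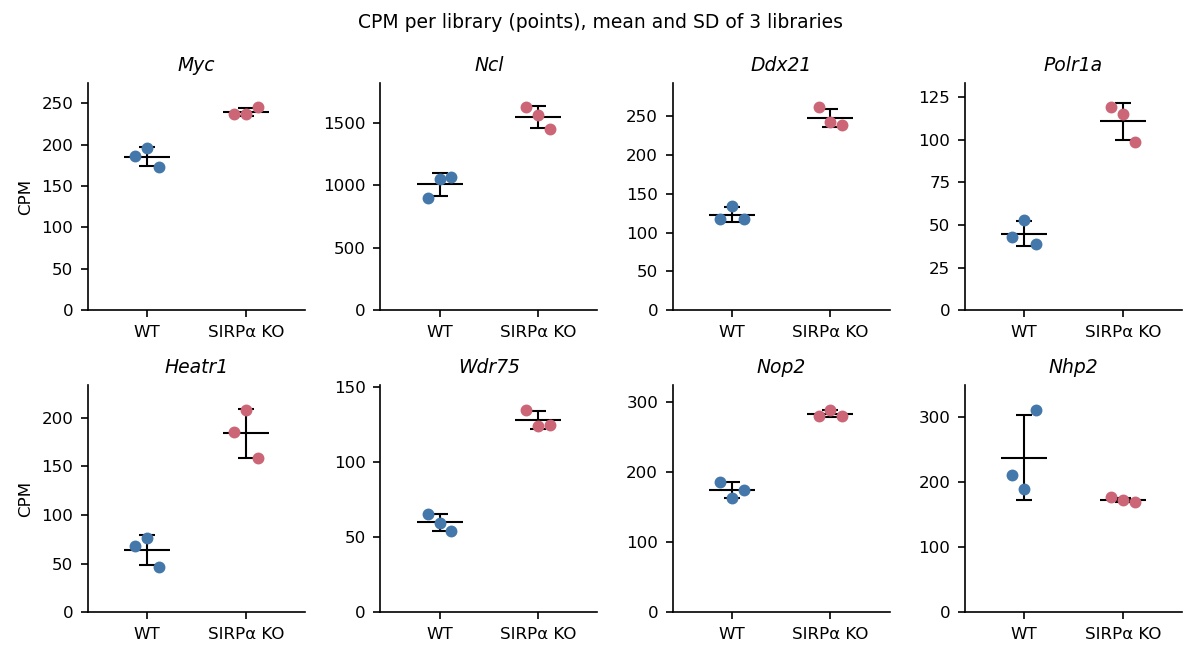
CPM (vertical axes, from 0) of 8 members by genotype (horizontal axes); points are libraries, and the horizontal mark and bars are the mean and SD of 3 libraries. As counted, the genotypes do not overlap in any of the 8: 7 are higher in SIRPα KO, and Nhp2 is lower (above WT with the length and GC correction), with WT 3 at the top of its WT values.

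The snoRNP group was mixed. Of its 7 genes 2 rose, and the median log2 fold change was 0.20. Without WT 3, 4 were called higher, and by sign 6 were higher and 1 lower (median 0.24). With the planned length and GC correction 0 rose, with a median of 0.09, and on coding or principal transcripts Nop56 and Fbl were called higher. Nolc1, a chaperone that carries snoRNPs to the nucleolus, had 145, 171 and 171 CPM in WT 1, 2 and 3 and 275, 250.1 and 242 CPM in SIRPα KO 1, 2 and 3, and rose 1.58-fold with no overlap (log2 fold change 0.66, SE 0.12, adjusted p = 0.019). Dkc1, dyskerin, the pseudouridine synthase of box H/ACA snoRNPs, had 269.6, 244 and 200.02 CPM in the WT libraries and 346, 345 and 336 CPM in SIRPα KO. It rose 1.44-fold (log2 fold change 0.53, SE 0.13, adjusted p = 0.039), and its SIRPα KO libraries were almost equal. Nhp2, which sits beside dyskerin in the same particle, went the other way, with 211, 189 and 311 CPM in the WT libraries and 176, 172 and 169.8 CPM in SIRPα KO. All SIRPα KO libraries lay below all WT libraries, with WT 3 far above the rest. The difference did not pass (log2 fold change -0.46, SE 0.18, adjusted p = 0.14), and the log2 fold change was -0.20 without WT 3 (adjusted p = 0.11). With the length and GC correction it changed sign (log2 fold change 0.09, adjusted p = 0.60). Gar1, another core protein of that particle, had a log2 fold change of -0.24 (adjusted p = 0.48), with WT 3 again the highest library, and of 0.32 with the correction (adjusted p = 0.19). Among the box C/D proteins, which guide methylation of ribosomal RNA, log2 fold changes were 0.37 for Nop58 (adjusted p = 0.062), 0.20 for Nop56 (adjusted p = 0.18) and -0.02 for the methyltransferase Fbl (adjusted p = 0.92). Nop58 and Nop56 were above WT in every SIRPα KO library, and Fbl overlapped. With the correction Nop58 was at -0.30 (adjusted p = 0.30), and at 0.32 on principal transcripts (adjusted p = 0.058).

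Small subunit processing showed the largest single rise. Of 7 genes 4 rose, and the median log2 fold change was 0.77. Heatr1, a scaffold that loads the early processing complex on the nascent precursor, had 68.5, 76.8 and 46.9 CPM in WT 1, 2 and 3 and 186, 208 and 158 CPM in SIRPα KO 1, 2 and 3. It rose 2.87-fold, the highest fold of the 35 members (log2 fold change 1.52, SE 0.20, adjusted p = 0.011). Wdr75 and Wdr43 belong to the same early complex. Wdr75 had 65.3, 59.8 and 54.5 CPM in the WT libraries and 135, 124 and 125 CPM in SIRPα KO, and rose 2.14-fold (log2 fold change 1.10, SE 0.12, adjusted p = 0.0075). Wdr43 had 215, 190.0 and 137 CPM in the WT libraries and 355, 329.7 and 348 CPM in SIRPα KO, and rose 1.91-fold (log2 fold change 0.93, SE 0.17, adjusted p = 0.019). All 3 genes of this complex were thus above every WT library in each SIRPα KO library, with WT 3 the lowest library for each. Rrp12, a protein of late pre-ribosomes and their export, had 87.5, 91.2 and 58.5 CPM in the WT libraries and 161, 126 and 117 CPM in SIRPα KO. Its 1.70-fold rise lay just inside the threshold (log2 fold change 0.77, SE 0.20, adjusted p = 0.0496). Rrp9, a protein of the snoRNP that acts in small subunit processing, had the lowest difference of the group as counted, with 122, 132 and 164 CPM in the WT libraries and 159, 156 and 146 CPM in SIRPα KO. The groups overlapped through WT 3 (log2 fold change 0.14, SE 0.14, adjusted p = 0.51). The log2 fold change was 0.28 without WT 3 (adjusted p = 0.056) and 0.058 without WT 1 (adjusted p = 0.80). With the correction Rrp9 was at 0.64 (adjusted p = 0.020), above Nop14 and Bysl. Nop14 and Bysl, which act in small subunit assembly, had log2 fold changes of 0.36 and 0.33 and did not pass (adjusted p = 0.089 and 0.098), though for both of them the genotypes did not overlap.

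Of the 10 genes of large subunit processing 7 rose, with a median log2 fold change of 0.51. All 10 were higher by sign, with no overlap between the genotypes. Gnl3, nucleostemin, a GTPase of growing and stem cells, had 133, 147 and 100.2 CPM in WT 1, 2 and 3 and 206, 214 and 218 CPM in SIRPα KO 1, 2 and 3, and rose 1.68-fold (log2 fold change 0.75, SE 0.15, adjusted p = 0.026). Nop2, a methyltransferase of the large subunit RNA, had 186, 162 and 174 CPM in the WT libraries and 279.9, 289 and 280.0 CPM in SIRPα KO, and rose 1.62-fold (log2 fold change 0.70, SE 0.10, adjusted p = 0.013). Both showed a tight cluster of SIRPα KO libraries. Rrp1b, a nucleolar processing factor, had 87.6, 76.3 and 91.2 CPM in the WT libraries and 142, 132 and 135 CPM in SIRPα KO, and rose 1.6-fold (log2 fold change 0.68, SE 0.12, adjusted p = 0.018). Grwd1, a histone chaperone that also takes part in ribosome assembly, had 100.3, 83.1 and 102 CPM in the WT libraries and 146, 152 and 139.9 CPM in SIRPα KO, and rose 1.54-fold (log2 fold change 0.62, SE 0.13, adjusted p = 0.026). Noc2l, of a nucleolar complex family that moves pre-ribosomes out of the nucleolus, had 260.0, 275 and 279 CPM in the WT libraries and 380.0, 398 and 377 CPM in SIRPα KO, and rose 1.42-fold (log2 fold change 0.50, SE 0.09, adjusted p = 0.020).

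Pes1, Bop1 and Wdr12 form one complex that is needed for maturation of the large subunit RNA. Bop1 had 172, 201 and 209 CPM in WT 1, 2 and 3 and 277, 266 and 255 CPM in SIRPα KO 1, 2 and 3, and rose 1.37-fold (log2 fold change 0.46, SE 0.11, adjusted p = 0.041). Wdr12 had 90.2, 83.1 and 90.4 CPM in the WT libraries and 129, 118 and 132 CPM in SIRPα KO, and rose 1.43-fold (log2 fold change 0.52, SE 0.11, adjusted p = 0.030), but with the correction the call was lost and the sign changed (log2 fold change -0.16, adjusted p = 0.64). Pes1, the third of the complex, had 168 ± 19.3 CPM in the WT libraries and 213 ± 6.33 CPM in SIRPα KO (mean ± SD, n = 3 libraries) and did not pass, although every SIRPα KO library was above WT. Nop16, a nucleolar protein of the large subunit pathway, had the lowest difference of the group as counted. Nop16 had 137, 140.4 and 169 CPM in the WT libraries and 198, 172 and 174 CPM in SIRPα KO. It was higher in every SIRPα KO library but did not pass (log2 fold change 0.28, SE 0.13, adjusted p = 0.17), and neither did the helicase Ddx18 (log2 fold change 0.32, SE 0.13, adjusted p = 0.14).

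**Figure D3:**
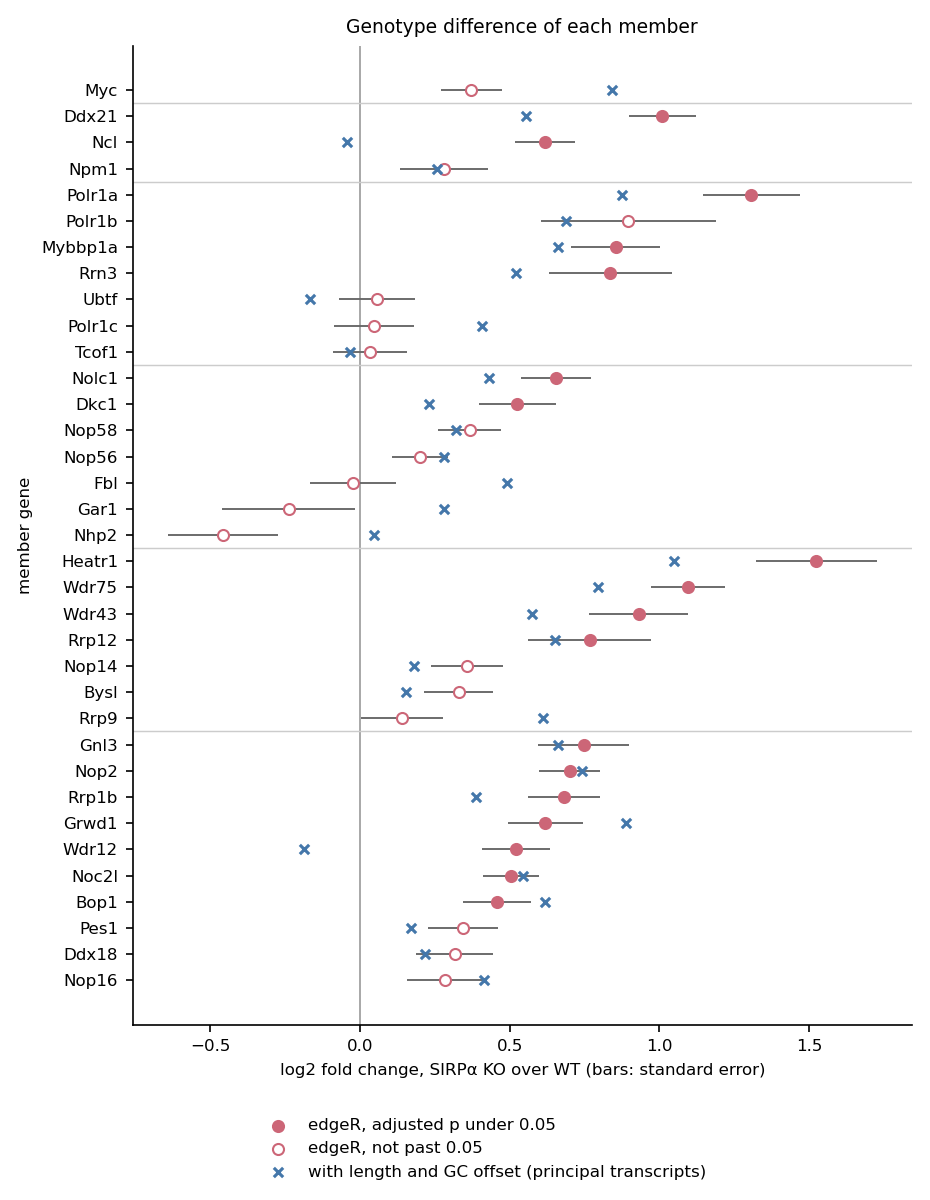
Log2 fold change of SIRPα KO over WT (horizontal axis) for each member (vertical axis, grouped by role); circles are edgeR estimates with SE bars, filled where the adjusted p is under 0.05, and crosses are estimates with the length and GC correction on principal transcripts. The 18 filled circles all lie above 0, and the crosses of Ncl and Wdr12 lie at or below it.

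The members also differed in how they varied within a genotype. The median coefficient of variation of a member was 11.1% in WT and 4.28% in SIRPα KO, and it was higher in WT for 32 of 35. Over all genes tested, the biological coefficient of variation from edgeR was also higher in WT, at 38.0% against 15.2%. WT 3 was the highest WT library for 18 members, whose median transcript length was 2451 bases, and the lowest for 13, whose median length was 3582 bases.

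Fold changes followed transcript length, and members were read against this trend. Over deciles of the well expressed genes (average log2 CPM 3 or more), formed by the longest annotated transcript, the median log2 fold change ran from -0.55 in the shortest to 0.47 in the longest. The members' median length was 3226 bases, close to the 3057 bases of all genes tested, and 32 of the 35 lay above the median of their own decile. Of the 17 members shorter than 3057 bases 6 rose (median log2 fold change 0.34), and of the 18 longer members 12 rose (median 0.72). With a correction of each library for length and GC content, 16 members rose, where 4.21% of all genes did, and the median was 0.51. The shorter and longer members then had medians of 0.46 and 0.57, with 8 called in each.

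**Figure D4:**
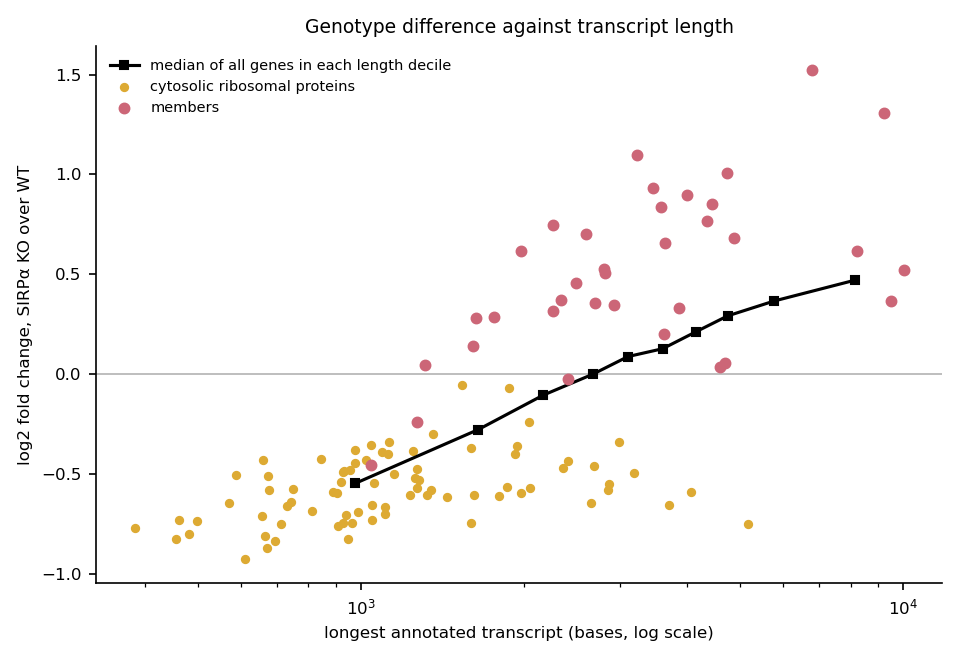
Log2 fold change (vertical axis) against the longest annotated transcript in bases (horizontal log axis); squares joined by a line are medians of the well expressed genes (average log2 CPM 3 or more) by length decile, from -0.55 to 0.47, and circles are the 35 members and 79 cytosolic ribosomal proteins. Of the members, 32 lie above the median of their decile.

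The correction depends on which transcript gives the length. With the principal transcript of each gene in place of the longest, 18 members rose (4.05% of all genes), with a median of 0.43. Of the 18 members called without a correction, 13 were called under all 3 versions of it: Ddx21, Polr1a, Rrn3, Mybbp1a, Wdr43, Wdr75, Rrp12, Heatr1, Nop2, Bop1, Gnl3, Grwd1 and Noc2l. The other 5, Ncl, Dkc1, Nolc1, Wdr12 and Rrp1b, lost the call under all 3 versions. With the planned correction Nolc1, Rrp1b and Dkc1 had log2 fold changes of 0.53, 0.45 and 0.34 (adjusted p = 0.052, 0.12 and 0.060), and Ncl and Wdr12 changed sign. Ncl and Wdr12 have annotated transcripts of 8202 and 10012 bases, while the next longest coding transcript is 661 bases for Ncl and 3251 for Wdr12. Myc, Rrp9 and Nop16 were called under all 3 versions and not without one. For Fbl, whose longest coding transcript is 1197 bases, the log2 fold change was 0.07 with the longest transcript of any type and 0.49 with the principal one (adjusted p = 0.75 and 0.016).

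Further genes of the ribosome biogenesis pathway rose more often than they fell. Of 102 tested, 28 rose and 1 fell (median log2 fold change 0.32), beside 5.94% and 5.81% of all genes, and 25 rose under the correction on principal transcripts, beside 4.05%. The number that rose was 0 with codes summed or without any one SIRPα KO library. It was 46 without WT 3, beside 10.4% of all genes. Utp20, a very large protein of the small subunit pathway, rose from 40.8 ± 15.2 to 111 ± 18.7 CPM (mean ± SD, n = 3 libraries; log2 fold change 1.44, SE 0.29, adjusted p = 0.025), and Urb2, a nucleolar factor of large subunit production, from 31.8 ± 9.74 to 85.1 ± 1.40 CPM (log2 fold change 1.42, SE 0.22, adjusted p = 0.015). Urb1, which acts with Urb2, had the third highest log2 fold change, 1.20, and did not pass (adjusted p = 0.076). Others that rose were small subunit factors (Utp15, Wdr3, Wdr36, Pwp2, Nol6, Nol10, Nol11, Bms1, Rcl1, Nat10, Ltv1, Tsr1, Tsr2, Ddx10 and Ddx52), large subunit and export factors (Ftsj3, Mdn1, Las1l, Tex10, Nmd3, Gtpbp4, Nvl, Sdad1, Gnl2 and Gnl3l) and the RNA polymerase I subunit Twistnb. Znrd1, a small subunit of RNA polymerase I, was the gene that fell, from 32.8 ± 3.89 to 21.4 ± 0.721 CPM (log2 fold change -0.62, SE 0.16, adjusted p = 0.049). Nop10, the remaining core protein of the box H/ACA particle, and Polr1d, a small subunit shared by RNA polymerases I and III, came next lowest with log2 fold changes of -0.48 and -0.42 and did not pass (adjusted p = 0.12 and 0.11). Of the box H/ACA core, Dkc1 was thus the member that rose, and the log2 fold changes of Nhp2, Gar1 and Nop10 were below 0 and did not pass. In the correction on principal transcripts the estimates of the 4 were 0.23, 0.05, 0.28 and -0.23, and none passed.

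Nucleotide synthesis supplies the precursors of ribosomal RNA. Of 26 of its genes tested, 11 rose and 0 fell, with a median log2 fold change of 0.30, beside 5.94% and 5.81% of all genes (2 were lower at an unadjusted p under 0.05, and DESeq2 called 12 higher and 2 lower). The number that rose was 0 with codes summed or without any one SIRPα KO library. It was 7 with the replicate block (beside 4.91% of all genes) and 7 without WT 1 (beside 4.03%). The median without WT 1 was 0.46. Ppat, the committed enzyme of purine synthesis, rose from 74.1 ± 7.47 to 146 ± 5.97 CPM (log2 fold change 0.98, SE 0.12, adjusted p = 0.0096), and Cad, which starts pyrimidine synthesis, from 217 ± 51.3 to 399 ± 34.2 CPM (log2 fold change 0.88, SE 0.18, adjusted p = 0.025). Shmt1 and Mthfd1, enzymes of one-carbon metabolism, had log2 fold changes of 0.75 (adjusted p = 0.017) and 0.73 (adjusted p = 0.012). Gmps, Ctps, Umps, Prps1, Gart, Paics and Impdh1 rose with log2 fold changes between 0.43 and 0.74. The lowest were Adssl1 (-0.61), Nme2 (-0.47) and Nme1 (-0.45), which did not pass (adjusted p = 0.41, 0.17 and 0.072). The correction on principal transcripts left 6 of the 26 called higher, beside 4.05% of all genes, and a median of 0.15.

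Cytosolic ribosomal proteins, the products that the members assemble into subunits, had fold changes below 0 as counted. Of 79 genes, 0 rose and 3 fell, where 5.81% of all genes fell, and 33 fell with DESeq2, where 1412 of the 12293 genes with an adjusted p did. The count of falls was 27 without WT 1 (3.86% of all genes), 28 without WT 3 (8.07%) and 0 without any one SIRPα KO library. At an unadjusted p under 0.05, 58 were lower, beside 2157 of the 13623 genes. All 3 SIRPα KO libraries lay below all 3 WT libraries for 59, against 21.2% of all genes tested. By sign all 79 were lower (76 without WT 3), and the median log2 fold change was -0.58 (-0.27 without WT 3). Rpl38, Rpl35 and Rpl32 fell, with log2 fold changes of -0.83 (SE 0.21, adjusted p = 0.047), -0.82 (SE 0.20, adjusted p = 0.040) and -0.76 (SE 0.20, adjusted p = 0.047). Rpl39, Rps27 and Rpl41 had the lowest log2 fold changes of the list, -0.93, -0.87 and -0.84, but did not pass (adjusted p = 0.051, 0.083 and 0.065), and Rpl4, Rpl3 and Rpl5 had the highest, -0.06, -0.07 and -0.24. The list's median position against the WT mean was -0.39, -0.13 and 0.52 in WT 1, 2 and 3 and -0.54, -0.54 and -0.51 in SIRPα KO 1, 2 and 3, so that the WT libraries themselves spanned a wide range. Ribosomal protein transcripts had a median length of 1059 bases, against 3226 for the members. With the length and GC correction the median was -0.14, and on principal transcripts it was -0.04, with 33 higher and 46 lower by sign and 0 called. The members had a median of 0.43 to 0.51 under the 3 versions of the correction.

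**Figure D5:**
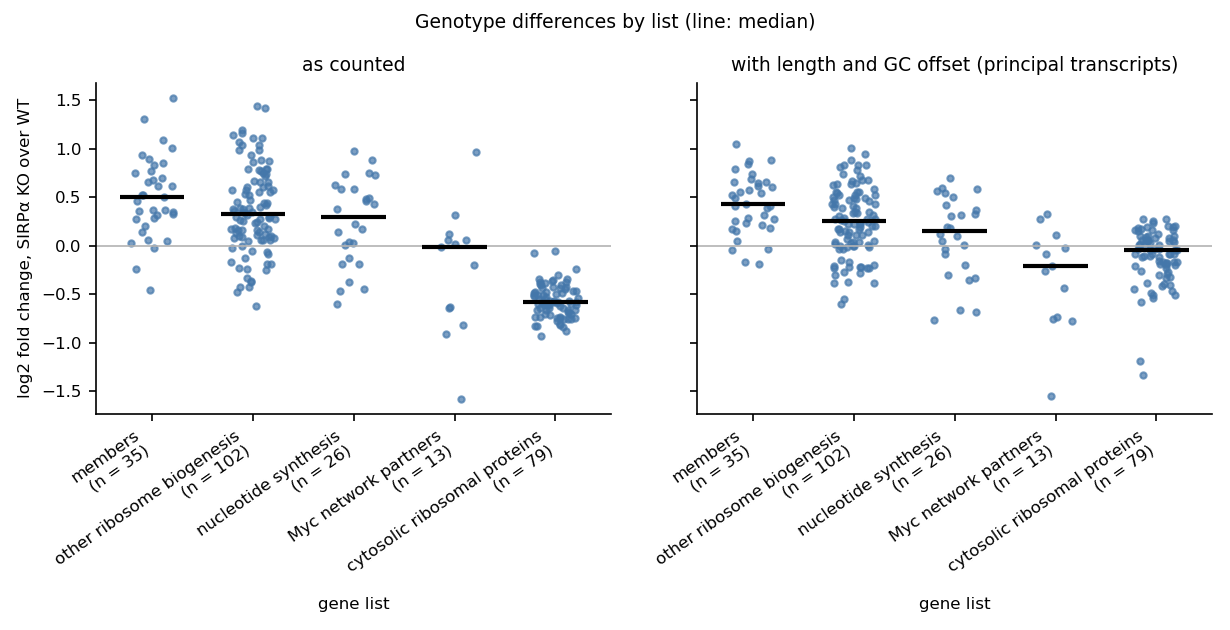
Log2 fold change of SIRPα KO over WT (vertical axis) for the genes of 5 lists (horizontal axis), as counted in the left panel and with the length and GC correction on principal transcripts in the right panel; each point is a gene and the line is the list's median. The median of the members is 0.50 and 0.43, and that of the cytosolic ribosomal proteins -0.58 and -0.04.

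Several members share their locus with other transcripts, and whether the counting used strand is not given in the sources used here. Ncl, Nop56, Nop58, Wdr43, Gnl3 and Dkc1 carry 3, 5, 4, 3, 3 and 1 annotated small nucleolar RNAs within their genes. Of the members that rose, Mybbp1a overlaps Spns2, Dkc1 overlaps Mpp1, Wdr12 overlaps Carf, Rrp1b overlaps Hsf2bp, Gnl3 overlaps Pbrm1, Noc2l overlaps Samd11, Heatr1 overlaps Lgals8 and Gm5928, Polr1a overlaps Gm19078 and Gm26628, Grwd1 overlaps Gm45441, Wdr43 overlaps a gene with a clone name and Bop1 overlaps Mroh1 and Scx on the opposite strand, and reads from such pairs cannot be told apart without strand. The separate counts of near-identical copies in the table came to 2.04% of the count of Wdr12, 2.07% of that of Pes1 and 2.42% of that of Ddx18. On mm10 with the GENCODE M21 annotation the 3 highest members lie at chr13:12395027-12440289 (Heatr1), chr6:71909053-71984935 (Polr1a) and chr1:45795166-45823619 (Wdr75), and Myc at chr15:61985391-61990374.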

How the data were processed

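The deposited values are estimated counts per gene, not scaled for library size. Per the submitters' processing notes, the authors used Partek 10.0, STAR 2.7.8 and DESeq2 with mm10, and the paper names the GENCODE M21 annotation and other versions of Partek and STAR. The handling of strand and of reads shared between genes is not given in the sources used here. Values were rounded to whole numbers. The table holds 17831 genes, of which 306 are named in the record of columns and 17525 hold the same unit. The series text speaks of duplicates, while the titles give 3 libraries per genotype, which were used. With 3 against 3, an exact permutation test cannot go below 0.1.

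Genes passing filterByExpr of edgeR (a minimum of 10 reads for the median library size and 15 in total) were scaled by TMM and tested on genotype alone (quasi-likelihood test, Benjamini-Hochberg over 13623 genes, threshold 0.05). Versions were R 4.3.3, edgeR 4.0.16, limma 3.58.1, DESeq2 1.42.0, BLAST+ 2.17.0 and matplotlib 3.10.9. The procedure was tested on simulated data with independent libraries, the same dispersion trend in both genotypes and no length trend. That test therefore does not cover these features of the data. The members and lists were chosen with earlier results of these data known. Named genes are all 35 members, with library values for Myc, every member past the threshold and the highest and lowest of each role group, and, of other lists, genes past the threshold and the 3 highest and 3 lowest. Tested genes with a length and GC content made up 99.0%. The correction for these fitted a spline with 5 degrees of freedom in each, per library, over 8870 genes outside the lists, and was used as an offset. Near-identical copies matched with 95% identity or more over 50% or more of the transcript. Alternatives were DESeq2, 3 scalings, 2 filters, a replicate block, summed codes, the correction and leaving out each library, and 2 other transcript choices for the correction were added after seeing the data. Sequences are from RefSeq (GRCm38.p6).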

Additional observations from a re-analysis of the deposited data

How the results depend on the processing

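In every alternative and with each library left out, the median log2 fold change of the members stayed above 0. It was 0.40 with upper quartile scaling (under which all genes had a median of -0.13), 0.46 with a filter of 50 reads, and 0.46 and 0.43 with the length and GC correction on coding and principal transcripts, both chosen after seeing the data. The number of members called higher was 24 with DESeq2 (13.6% of the genes with an adjusted p) and 0 with codes summed. With 1 library left out it ran from 0 (any SIRPα KO library) to 27 (WT 3, beside 10.4% of all genes). With 1 library left out, 0 (any SIRPα KO library) to 46 (WT 3, beside 10.4% of all genes) further ribosome biogenesis genes rose. With codes summed, 0 of them rose. Their count of falls was 2 with DESeq2, 0 with DESeq2 size factors, no filter, the replicate block, codes summed or any of the 3 corrections, and 0 to 1 with 1 library left out. Their median was 0.22 with upper quartile scaling, 0.28 with 50 reads, and 0.27 and 0.25 with the coding and principal corrections. Of the ribosomal proteins, 33 fell with DESeq2, 7 with 50 reads (9.16% of all genes), 0 with no filter, codes summed or a correction, and 0 (without any SIRPα KO library) to 28 (without WT 3, 8.07% of all genes; 27 without WT 1, 3.86%) with 1 library left out, and their median was -0.14, -0.052 and -0.043 under the corrections. The cause was not tested.

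Single members changed sign. With upper quartile scaling Polr1c, Ubtf and Tcof1 were at -0.056, -0.044 and -0.063, with 50 reads Tcof1 was at -0.0055, and with no filter Fbl was at 1.4e-05. With the planned correction Ncl, Ubtf, Tcof1, Fbl, Nop58, Nhp2, Gar1 and Wdr12 were at -0.014, -0.11, -0.00084, 0.074, -0.30, 0.086, 0.32 and -0.16. On coding transcripts the same genes were at -0.029, -0.14, -0.028, 0.51, -0.31, 0.078, 0.30 and -0.17. On principal transcripts Ncl, Ubtf, Tcof1, Fbl, Nhp2, Gar1 and Wdr12 were at -0.045, -0.17, -0.034, 0.49, 0.046, 0.28 and -0.19. With 1 library left out, Ubtf ranged from -0.0011 (without SIRPα KO 2) to 0.16, Tcof1 from -0.041 (without WT 3; -0.011 without SIRPα KO 2) to 0.12, Fbl from -0.10 to 0.14 (without WT 3) and Gar1 from -0.38 to 0.075 (without WT 3).

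With the replicate number as a block, 14 members rose, where 4.91% of all genes did, with a median of 0.50. The deviations of same-numbered libraries from their group means had correlations of -0.14, 0.18 and 0.03 for numbers 1, 2 and 3. With 3 libraries per genotype, these correlations cannot decide whether the numbers pair the samples. Depth was not varied, and the lowest value of any member in any library was 525 reads.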
